A study of Mus musculus with 30 samples.

Results

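The transcription factors that divide the neural tube along its dorsal-ventral axis were examined as a group of 10 genes, *Pax3*, *Pax6*, *Pax7*, *Msx1*, *Msx3*, *Gsx1*, *Dbx1*, *Dbx2*, *Nkx6-1* and *Irx3*. They were taken by gene symbol, and all 10 were present among the 25400 genes counted. Neuronal progenitor cells (NPCs) derived in vitro from mouse embryonic stem cells (ESCs) were collected at day 8, and their poly(A) RNA was sequenced in 24 libraries, with 3 for each of 8 lines. The study asked which parts of MBD2 and MBD3, the alternative methyl-CpG binding domain (MBD) subunits of the NuRD chromatin remodelling complex, can stand in for MBD3 during this differentiation.

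The lines were wild type (WT) cells, *Mbd3* knock-out (KO) cells, and the KO cells with a construct for MBD3a, MBD3ΔMBD (MBD3 without the MBD), MBD2a, MBD2aΔGR (MBD2a without its glycine-arginine stretch), MBD2aR181C (a point mutant of the MBD) or MBD2t (the truncated isoform). All lines descend from 1 ESC line of mixed 129 and C57BL/6 background that carries the BirA biotin ligase, and the constructs sit at a single recombination site under the strong CAG promoter. Every line keeps its own *Mbd2* gene. Libraries of a line came from different clones, except for MBD2t, where they are repeats of a single clone. The point mutant has the name R181C in the labels, R191C in the text of the study and R64C in the count columns. These columns were taken as this line because it is the only point mutant of MBD2a among the RNA-seq libraries and columns, which is an assumption.

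In the early neural tube, BMP and Wnt signals from the roof plate and Sonic hedgehog from the floor plate set up bands of progenitors, each marked by its own combination of homeodomain and paired-domain factors. *Pax3*, *Pax7* and *Msx3* are expressed in the dorsal alar plate, *Msx1* in the roof plate and its neighbours, and *Gsx1* in dorsal progenitors of sensory interneurons. *Dbx1* and *Dbx2* mark the intermediate domains on either side of the boundary between dorsal and ventral, *Pax6* and *Irx3* cover broad intermediate territory, and *Nkx6-1* is a ventral factor that is also used in the endocrine pancreas. Many of these factors repress their neighbours across domain borders.

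MBD2 recognises methylated CpG, so the CpG content of the promoters is given as background to the genes. Promoters of 9 of the 10 genes were found in RefSeq (GRCm38.p6), *Pax3* being the one without an entry. In the 250 bases before the start site they held from 9 CpGs in *Dbx2* to 30 in *Nkx6-1*, against a median of 6 over the 27025 genes with a promoter in the table. The sequences below are those of the 3 genes that were called between the MBD2a and *Mbd3* KO lines. Capitals mark each CpG (the letters CG, which read the same on both strands), and no methylation was measured in these libraries.
Pax6 (chr2:105668646-105668895, + strand): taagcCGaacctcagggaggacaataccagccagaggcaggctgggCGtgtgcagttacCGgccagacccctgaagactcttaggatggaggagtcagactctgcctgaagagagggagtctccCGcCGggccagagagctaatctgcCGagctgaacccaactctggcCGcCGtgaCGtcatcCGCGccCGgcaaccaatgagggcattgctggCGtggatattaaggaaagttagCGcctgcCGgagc
Msx1 (chr5:37824586-37824835, - strand): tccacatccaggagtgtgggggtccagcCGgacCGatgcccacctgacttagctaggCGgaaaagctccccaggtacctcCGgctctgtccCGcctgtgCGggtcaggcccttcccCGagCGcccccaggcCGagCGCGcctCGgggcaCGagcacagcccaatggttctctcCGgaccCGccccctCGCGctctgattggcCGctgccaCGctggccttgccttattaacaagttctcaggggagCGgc
Irx3 (chr8:91801655-91801904, - strand): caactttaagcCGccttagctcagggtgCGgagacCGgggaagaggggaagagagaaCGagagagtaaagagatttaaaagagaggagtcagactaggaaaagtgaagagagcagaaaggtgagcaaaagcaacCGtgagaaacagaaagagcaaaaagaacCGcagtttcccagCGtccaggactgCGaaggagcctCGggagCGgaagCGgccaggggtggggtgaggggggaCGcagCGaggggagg
Of the 2 promoters listed for *Pax6* the first is shown. The *Msx1* window held 20 CpGs, a number reached by 17.7% of all promoters of this length. For *Pax6* it was 15 CpGs (27.5% of promoters had as many) and for *Irx3* 13 (31.8%).

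The libraries held 27993858 to 49392806 counted reads, and on the scale of read counts scaled to library size (CPM) 3 reads correspond to 0.0607 to 0.115, a floor that covers counting error only. *Mbd3* itself had a mean of 154 ± 4.06 CPM in WT and 59.0 ± 21.6 CPM in KO (SD, n = 3), so reads on the gene remained. It had 186 ± 16.2 CPM in MBD3a and 448 ± 41.5 CPM in MBD3ΔMBD (SD, n = 3). Reads on *Mbd2* reached 477 ± 211 CPM in MBD2aΔGR, 278 ± 41.1 CPM in MBD2aR181C and 344 ± 10.9 CPM in MBD2t, but only 80.2 ± 11.4 CPM in MBD2a, against 66.8 ± 3.56 CPM in *Mbd3* KO (SD, n = 3). Whether reads from all constructs are counted equally is not given in the sources used here. These are RNA counts in NPCs. On Western blots of the ESC lines, the study reports equal protein levels of MBD2a and MBD2aΔGR. Of 7 progenitor markers counted, all 7 were called lower in *Mbd3* KO by the rule given below. The share over all genes tested was 14.2%. The summed level of these markers was 277 to 344 CPM in *Mbd3* KO against 1987 to 2275 CPM in WT.

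Some libraries stood apart from the others of their line. The MBD2aΔGR library s18 of the deposited table had a summed level of 7073 CPM for 8 markers of extraembryonic endoderm, against 595 and 490.3 CPM in s16 and s17, and 1032 CPM for the progenitor markers, against 2108 and 1611 CPM. Genes of chromosome 1, where *Pax3* lies, had a median deviation of -0.40 (log2) in the *Mbd3* KO library s04 and of -0.33 in the MBD2a library s15 from the other libraries of their lines. The chromosomes of the other 9 factors deviated by -0.09 to 0.11 in every library. In WT, s03 differed more from s01 and s02 (chi-square per gene 187 and 160) than these from each other (24.4), and its ESC markers summed to 182 CPM against 24.02 and 41.5 CPM. The MBD2aR181C library s20 had an ESC marker sum of 333 CPM against 28.1 and 135 CPM in s19 and s21. Without s03 the numbers of factors called against WT were those of the full fit in all 7 lines, as were the numbers for MBD2aR181C without s20 in its 4 comparisons. Where a call on a factor changed without s04, s15 or s18, the value or the number called without the library is given.

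In WT NPCs the factors spanned a wide range of levels. Per kilobase of exon, *Irx3* (93.9 ± 12.2 CPM per kb, SD, n = 3) and *Msx3* (91.3 ± 28.9) were the highest, followed by *Dbx1* (67.2 ± 20.2), *Msx1* (30.2 ± 0.422) and *Pax3* (27.9 ± 6.36). *Nkx6-1* (1.19 ± 0.757) and *Dbx2* (1.00 ± 0.373) were the lowest. The highest levels per length were those of dorsal and intermediate factors. *Nkx6-1*, the only factor classed here as ventral alone, had one of the 2 lowest. The other low one, *Dbx2*, is an intermediate factor. With a single factor in the ventral class, the order does not compare these classes. *Irx3* and *Msx3*, like *Nkx6-1* and *Dbx2*, differed by less than their spread.

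**Figure D1:**
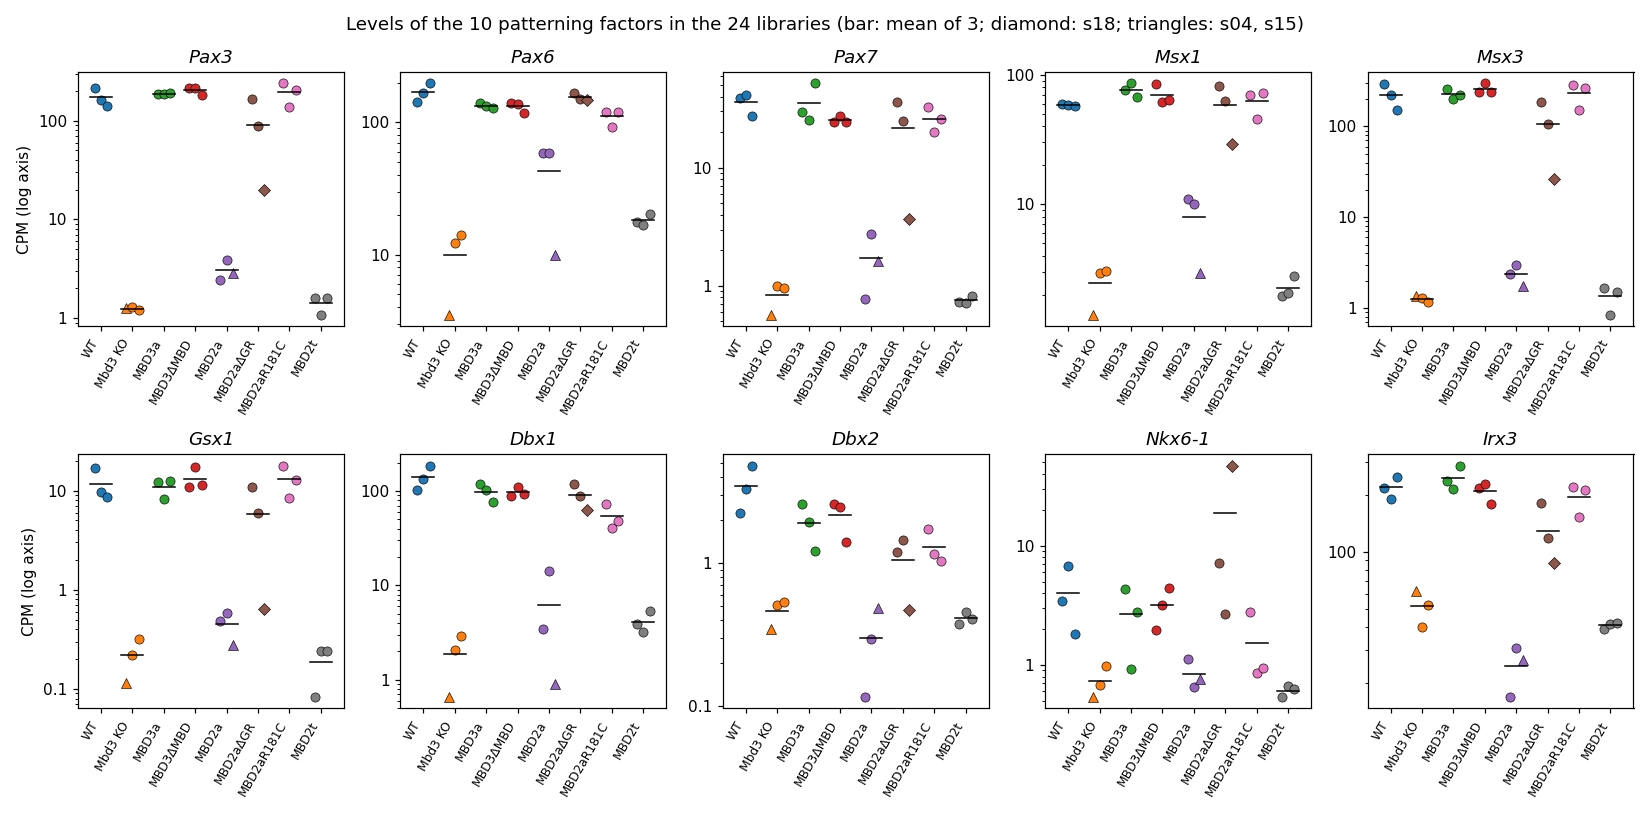
Level of each of the 10 factors in CPM (log axis) in every library of the 8 lines, with a bar at the mean of 3 libraries. Symbols are circles, a diamond for the MBD2aΔGR library s18 and triangles for the *Mbd3* KO library s04 and the MBD2a library s15. *Mbd3* KO, MBD2a and MBD2t lie below WT for each factor, and s18 lies below s16 and s17 for *Pax3*, *Pax7* and *Msx3* but above them for *Nkx6-1*.

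The first question was how the loss of MBD3 changed the factors. All 10 fell in *Mbd3* KO NPCs and none rose. Over all 16582 genes tested, 33.8% were called changed, 14.2% lower and 19.6% higher. Calls are those of edgeR's quasi-likelihood test, at p under 0.05 after Benjamini-Hochberg adjustment over all genes tested and a change of more than 1 on the log2 scale. The median log2 fold change was -4.97 over the 10 factors and -0.03 over all genes tested. For all 10, the *Mbd3* KO libraries lay below the WT libraries without overlap, and libraries of the 2 lines did not overlap for 62.2% of all genes tested. In these bulk libraries, fewer cells that express a factor and less of its RNA per cell cannot be told apart.

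The 2 largest falls were in *Msx3* and *Pax3*, both dorsal factors of the alar plate. *Msx3*, a muscle segment homeobox gene of the dorsal tube (chr7:147232056-147235039, minus strand, NCBIM37), was measured at 289, 219.8 and 150.3 CPM in WT, and at 1.34, 1.28 and 1.16 CPM after loss of MBD3. The highest KO library was thus far under the lowest WT library. Its log2 fold change was -7.44 (SE 0.584, adjusted p = 2.71e-08). *Pax3*, the paired-box factor of the dorsal tube and neural crest (chr1:78097842-78193709, minus strand), fell from 216, 161 and 139.9 CPM to 1.26, 1.28 and 1.22 CPM, by 7.10 on the log2 scale (SE 0.569, adjusted p = 3.28e-08). The s04 library, with its lower chromosome 1 median, lay between the other 2 KO libraries for *Pax3*. *Pax7*, the related dorsal factor, fell by 5.39 (SE 0.631, adjusted p = 1.48e-06) and *Gsx1* by 5.71 (SE 0.766, adjusted p = 5.92e-06), to 0.114 to 0.317 CPM, near the level of 3 reads. *Msx1*, the roof plate homeobox gene, was the steadiest in WT (57.5 to 59.0 CPM) and had 1.40 to 3.07 CPM in the KO, a fall of 4.55 (SE 0.435, adjusted p = 1.84e-07).

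Intermediate factors fell over a wider range. *Dbx1*, which marks progenitors of commissural interneurons (chr7:56886869-56892219, minus strand), had 102, 134 and 186 CPM in WT and 0.658, 2.08 and 2.88 CPM in KO, a log2 fold change of -6.21 (SE 0.672, adjusted p = 6.55e-07). *Pax6*, a factor of ventral and intermediate progenitors and of the eye (chr2:105509053-105543317, plus strand), went from 142, 168 and 197 CPM to 3.52, 12.2 and 14.1 CPM, which is -4.08 (SE 0.487, adjusted p = 1.82e-06). The s04 library was the lowest of the KO line for both genes, and without it they were at -5.83 (*Dbx1*, adjusted p = 9.82e-06) and -3.68 (*Pax6*, 1.03e-05). *Irx3*, the Iroquois factor of the intermediate tube (chr8:94322428-94325553, minus strand), kept the largest share of its WT level, with 219, 192 and 249 CPM in WT and 61.8, 40.1 and 52.2 CPM in KO. Its fall of 2.10 (SE 0.244, adjusted p = 1.37e-06) was the smallest of the 10. *Pax6* shares 5542 exon bases with *Elp4* and *Irx3* shares 124 with *D230002A01Rik*, both on the opposite strand, and the strand setting of the counting is not given in the sources used here.

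The 2 genes with low levels fell as well. *Dbx2* had 2.25, 3.30 and 4.82 CPM in WT and 0.343, 0.509 and 0.529 CPM in KO, a fall of 2.89 (SE 0.417, adjusted p = 1.24e-05). *Nkx6-1* had 3.41, 6.79 and 1.80 CPM in WT and 0.543, 0.686 and 0.979 CPM in KO, a fall of 2.42 (SE 0.925, adjusted p = 0.03). This last call was lost without s02 (adjusted p = 0.141), s04 (0.0779) or s05 (0.0751), while the other 9 were called in every such fit.

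**Figure D2:**
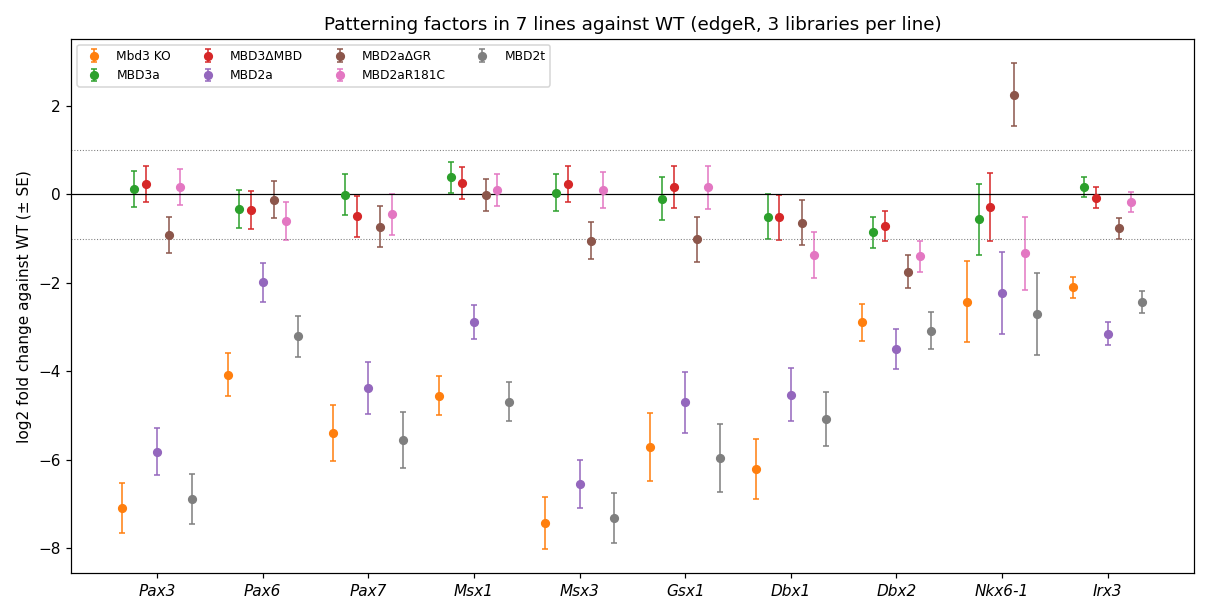
Log2 fold change against WT of each factor in the 7 other lines, as points with standard errors from edgeR (3 libraries per line, dotted lines at -1 and 1). *Mbd3* KO, MBD2a and MBD2t lie below -1 for every factor, and MBD3a, MBD3ΔMBD and MBD2aR181C lie between -1.39 and 0.39.

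With MBD3a or MBD3ΔMBD in the KO cells, none of the 10 factors was called against WT, where 0% of all genes were called for MBD3a and 0.0181% for MBD3ΔMBD. At an unadjusted p-value under 0.05, edgeR had 1 factor in each line, *Dbx2*, and DESeq2 called 0 in both. *Dbx2* had 1.21 to 2.58 CPM with MBD3a and 1.41 to 2.60 CPM with MBD3ΔMBD, overlapping WT, with log2 fold changes of -0.85 (95% interval -1.54 to -0.17, adjusted p = 1) and -0.71 (-1.38 to -0.05, adjusted p = 0.695). *Msx1* had the highest value of the 10 with MBD3a, 0.39 (-0.31 to 1.08). In both lines *Pax6* lay below WT and *Msx1* above WT without overlap, as did 5.18% of all genes in either direction for MBD3a and 11.7% for MBD3ΔMBD. The log2 fold changes of *Pax6* were -0.33 (-1.16 to 0.50) and -0.35 (-1.18 to 0.48). Without the MBD, the levels of the factors were close to those with it. The lines also differed in reads on *Mbd3*, as given above. *Msx3* had 257, 200.02 and 222 CPM with MBD3a and 238, 297 and 239.98 CPM with MBD3ΔMBD, and *Dbx1* had 118, 102 and 77.2 CPM and 89.2, 111 and 93.6 CPM. Between both lines no factor was called (edgeR, 0 at an unadjusted p-value under 0.05, DESeq2 0, with 0% of all genes called). The 95% interval of the difference (MBD3ΔMBD minus MBD3a, log2) was -1.32 to 1.89 for *Nkx6-1*, the widest, and -0.70 to 0.22 for *Irx3*, the narrowest.

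Against *Mbd3* KO, 9 of the 10 factors were higher with MBD3a and the same number with MBD3ΔMBD, where 32.4% and 35.9% of all genes were called. *Pax3* rose by 7.23 (adjusted p = 3.48e-08) and 7.34 (2.06e-08) on the log2 scale, and *Irx3* by 2.27 (8.58e-07) and 2.03 (1.45e-06). The exception in both was *Nkx6-1*, at 1.86 (adjusted p = 0.112) and 2.14 (0.056). These comparisons share the KO libraries with the one against WT.

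MBD2a left all 10 factors below WT. They were called lower in edgeR's test, where 30.6% of all genes were called, 13.7% lower, and the libraries did not overlap WT for any of the 10 (56% of all genes did not overlap). The falls of *Msx3* and *Pax3* were again the largest of the 10. *Msx3* had 2.36, 2.98 and 1.73 CPM, a log2 fold change of -6.55 (SE 0.552, adjusted p = 2.54e-07). *Pax3* had 2.42, 3.92 and 2.85 CPM, at -5.82 (SE 0.523, adjusted p = 3.42e-07), and the library with the lower chromosome 1 median, s15, lay between the other 2. *Pax7* at -4.38 (SE 0.583, adjusted p = 9.44e-06) and *Gsx1* at -4.70 (SE 0.695, adjusted p = 2.59e-05) fell by less than *Msx3* and *Pax3*. *Nkx6-1*, with 1.12, 0.648 and 0.765 CPM, was at -2.23 (SE 0.919, adjusted p = 0.0463), and this call was lost without s01, s02, s13, s14 or s15 (adjusted p from 0.0623 to 0.194).

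*Pax6* was the member that held most in MBD2a, with 58.9, 58.7 and 9.99 CPM, a fall of 1.99 from WT (SE 0.441, adjusted p = 0.000941). The third library, s15, was also low for *Msx1* (2.93 CPM against 10.9 and 9.96) and *Dbx1* (0.892 CPM against 3.43 and 14.1). Without s15 the falls from WT were 1.51 for *Pax6* (adjusted p = 0.00106), 2.47 for *Msx1* (5.57e-05) and 3.99 for *Dbx1* (3.06e-05). Trophoblast markers summed to 1123 CPM in s15 and to 322 and 315 CPM in s13 and s14, and their part in the result was not tested.

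Compared directly with *Mbd3* KO, MBD2a differed in 3 of the 10 factors, where 5.25% of all genes were called. *Pax6* was 2.09 higher on the log2 scale (SE 0.456, adjusted p = 0.00648) and *Msx1* 1.67 higher (SE 0.425, adjusted p = 0.0177), although s15 put both within the range of the KO libraries. Without s15 the differences were 2.54 (adjusted p = 3.04e-05) and 2.06 (0.000908), and *Dbx1* was called too, at 2.19 (adjusted p = 0.00883) against 1.68 (0.115) with all libraries. *Irx3* went the other way. Its 16.95, 30.8 and 26.7 CPM in MBD2a lay below all 3 *Mbd3* KO libraries, a difference of -1.05 (SE 0.241, adjusted p = 0.00903). Without s04 or s13, *Msx1* and *Irx3* were not called and 1 factor, *Pax6*, was left (5.44% and 3.38% of all genes called). *Msx1* was not called without s14 either (1.47, adjusted p = 0.0901). In a fit of only the 6 libraries none was called, with 1.52% of all genes called (adjusted p = 0.2 for *Pax6*, 0.17 for *Msx1* and 0.0938 for *Irx3*).

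MBD2t gave levels near those of *Mbd3* KO. All 10 fell against WT (33.4% of all genes called, 15.1% lower, and 69.2% without overlap), with a median log2 fold change of -4.88, although *Nkx6-1* was not called without s02 (adjusted p = 0.0932) or s22 (0.0501). *Msx3* had 0.848 to 1.68 CPM and fell by 7.32 (SE 0.575, adjusted p = 2.60e-08), *Pax6* had 16.7 to 20.3 CPM and fell by 3.21 (SE 0.464, adjusted p = 1.24e-05), and *Irx3* had 39.0 to 41.8 CPM and fell by 2.43 (SE 0.247, adjusted p = 3.87e-07). Against *Mbd3* KO none was called (edgeR, 0.0241% of all genes, DESeq2 0 of 10), and none had an unadjusted p-value under 0.05. *Pax6* and *Dbx1* lay above the KO libraries without overlap, as 19% of all genes tested did in either direction, by 0.86 (95% interval -0.02 to 1.74, adjusted p = 1) and 1.13 (-0.13 to 2.39, adjusted p = 1). As repeats of a single clone, these libraries lack the spread between clones.

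The shortened and mutated forms of MBD2a gave levels closer to WT. In MBD2aR181C none of the 10 was called against WT (0.0181% of all genes called, DESeq2 0), and 2 had an unadjusted p-value under 0.05. *Msx3* had 289, 153 and 264 CPM, *Pax3* 239, 137 and 206 CPM and *Irx3* 220.5, 154 and 213 CPM, overlapping WT. Below WT without overlap were 3 of the 10, as were, in either direction, 6.56% of all genes tested. *Dbx1* had 73.3, 41.0 and 47.9 CPM, a log2 fold change of -1.38 (95% interval -2.39 to -0.36, adjusted p = 0.999). *Dbx2* had 1.72, 1.15 and 1.03 CPM, at -1.39 (-2.08 to -0.71, adjusted p = 0.579). *Pax6* had 121, 92.4 and 120.3 CPM, at -0.60 (-1.44 to 0.23, adjusted p = 0.999). Against *Mbd3* KO, 9 of the 10 were higher (31.1% of all genes called), all but *Nkx6-1* (1.09, adjusted p = 0.37). Against MBD2a the same number was higher (27.3% called), again without *Nkx6-1* (0.90, adjusted p = 0.472). Without s15, *Pax6* was short of the fold threshold against MBD2a (0.91, adjusted p = 0.0273), and 8 of the 10 were called (22% of all genes). *Msx3* was 6.65 above MBD2a on the log2 scale (SE 0.554, adjusted p = 3.85e-07).

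All 10 factors were higher in MBD2aΔGR than in MBD2a, where 18.6% of all genes tested were called and 8.02% were called higher. The differences ran from 1.75 in *Dbx2* (SE 0.549, adjusted p = 0.0191) and 1.87 in *Pax6* (SE 0.439, adjusted p = 0.00305) to 5.50 in *Msx3* (SE 0.532, adjusted p = 2.40e-06). Without s18 all 10 were called too, with *Msx3* at 5.96 (adjusted p = 5.55e-09) and *Nkx6-1* at 2.53 (0.00505) in place of 4.48. The call of *Dbx2*, whose libraries overlapped between these lines, was lost without s13, s14, s16 or s17 (adjusted p from 0.0549 to 0.0985). A fit of only the 6 libraries called 6 of the 10, and 11% of all genes. Against *Mbd3* KO, 9 were higher (25.2% of all genes called), and the exception was *Dbx2* (1.14, adjusted p = 0.0656). Without s18 all 10 were called higher against *Mbd3* KO, *Dbx2* included (28.5% of all genes called).

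Against WT, MBD2aΔGR had 1 of the 10 factors called, where 5.16% of all genes were called. *Dbx2*, with 1.20, 1.46 and 0.471 CPM, was lower by 1.75 (SE 0.374, adjusted p = 0.0134). Without s18 it was not called (-1.38, adjusted p = 0.0988). *Dbx2* and *Irx3* were the 2 of 10 without overlap with WT, as were 18.8% of all genes, and *Irx3* was at -0.77 (SE 0.235, adjusted p = 0.048), short of the fold threshold.

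The factors differed widely between the MBD2aΔGR libraries. *Pax3* had 165, 89.2 and 19.97 CPM in s16, s17 and s18, *Msx3* 185, 107 and 26.2 CPM, *Pax7* 36.3, 25.1 and 3.66 CPM, and *Gsx1* 10.97, 5.90 and 0.637 CPM. *Msx1* had 82.2, 62.8 and 29.1 CPM. Library s18 was the lowest of the line for 9 of the 10 factors, the intermediate ones included. *Pax6* varied least, with 167, 151 and 148 CPM, while *Dbx1* had 120.1, 88.7 and 62.8 CPM, *Irx3* 180.9, 119 and 87.6 CPM and *Dbx2* the values given above. *Nkx6-1* had 7.13 and 2.68 CPM in s16 and s17 and 46.8 CPM in s18, its highest level in any of the 24 libraries.

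The other ventral genes differed in s18. *Olig2*, which marks motor neuron progenitors, had 16.6 CPM there against 6.30 and 3.40 CPM in s16 and s17, and *Foxa2*, a factor of the floor plate and of endoderm, 62.0 CPM against 11.1 and 8.64 CPM. *Foxa1* (26.5 CPM against 26.4 and 28.9) and *Foxn4* (2.69 CPM against 2.21 and 2.89) were not higher in it. The 12 other dorsal progenitor factors had their lowest level of the line in s18. Of the roof plate signals, *Bmp6* was highest there (11.9 CPM against 3.69 and 3.01) and *Wnt1* lowest, at 7.31 CPM against 51.7 and 26.7 CPM and *Zic1*, a dorsal zinc-finger factor, at 26.5 CPM against 164 and 78.6 CPM. Markers of extraembryonic endoderm moved with these values, among them *Sox17* (135 CPM against 63.9 and 42.5), *Dab2* (242 against 15.8 and 17.4) and *Lama1* (2439 against 251 and 178), and their part in the result was not tested. The 6 pancreas markers summed to 2.55 CPM in s18 and to 10.5 and 6.02 CPM in s16 and s17, with *Pdx1*, the defining factor, at 0.138 CPM in s18.

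**Figure D3:**
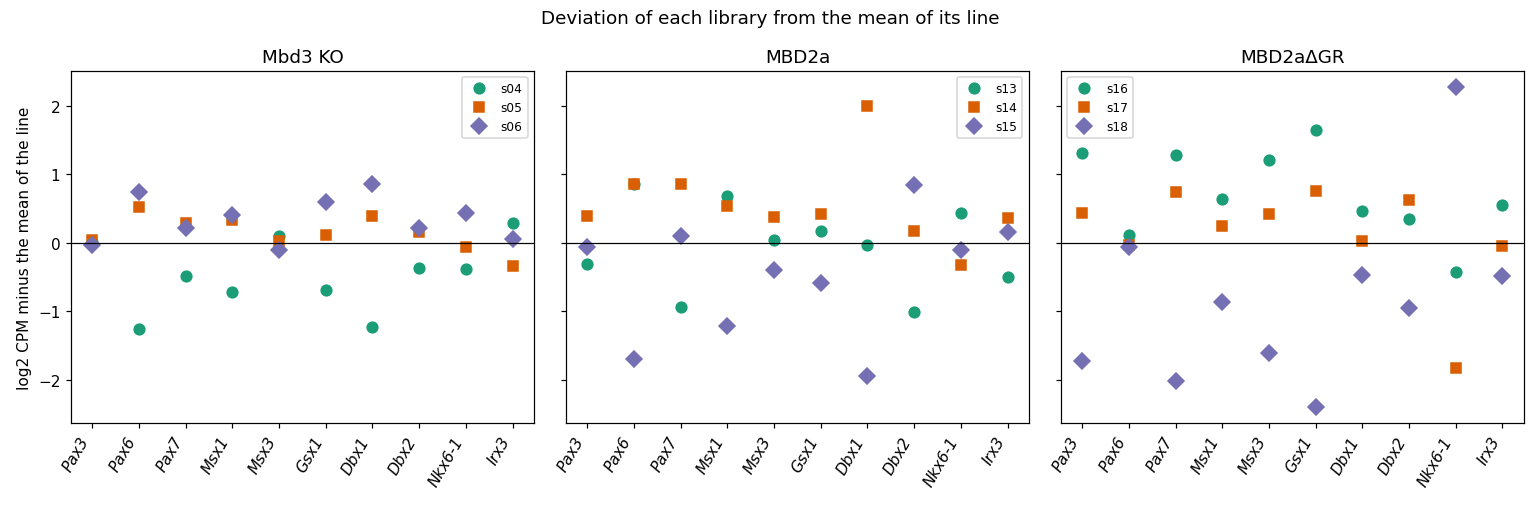
Deviation of each library from the mean of its line in log2 CPM for the 10 factors, in *Mbd3* KO, MBD2a and MBD2aΔGR. Library s18 lies at -1.73 for *Pax3* and near 0 for *Pax6*, s15 at -1.70 for *Pax6*, and s04 at -1.26 for *Pax6*.

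Without s18, *Nkx6-1* was at 0.30 against WT (adjusted p = 0.846) in place of 2.25 (0.0558), *Pax3* at -0.44 (0.438) in place of -0.92 (0.159), and *Msx3* at -0.59 (0.382) in place of -1.05 (0.117). Without s16 instead, which left s17 and s18, 6 factors and 11.4% of all genes were called against WT, the factors being *Pax3*, *Msx3*, *Gsx1*, *Dbx2* and *Irx3* lower and *Nkx6-1* higher. Between MBD2aΔGR and MBD2aR181C, *Nkx6-1* was the 1 factor called (2.35% of all genes called), lower in MBD2aR181C than in MBD2aΔGR by 3.59 (SE 0.787, adjusted p = 0.0222), and without s18 it was not called (-1.63, adjusted p = 0.36).

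The factors did not all vary together between libraries of a line. With line means removed, log2 CPM over the 24 libraries had a Pearson r of 0.95 between *Pax3* and *Msx3*, 0.89 between *Pax3* and *Pax7*, 0.87 between *Pax6* and *Dbx1*, and 0.83 between *Pax6* and *Msx1*, but 0.08 between *Pax3* and *Pax6*. The values share libraries, depth and scaling, and the 3 libraries of a line fix each other's deviations. Without MBD2aΔGR (21 libraries) they were 0.85, 0.62, 0.88, 0.94 and 0.11, and *Pax3* with *Nkx6-1* went from -0.51 to 0.11. These 21 libraries still hold s04 and s15, which had the *Pax6* deviations of largest size. In s15 *Pax6* was at -1.70, *Dbx1* at -1.95 and *Msx1* at -1.22. In s04 they were at -1.26, -1.24 and -0.72. Correlations without s04 and s15 were not computed. Likeness was ranked over all other genes with a mean of at least 1 CPM. *Fzd10* (0.95), a Wnt receptor, varied most like *Pax3*, *Car14* (0.96) most like *Pax6* and *Tmem47* (0.97) most like *Msx1*. *Sp8* (0.93) varied most like *Dbx1* and *Loxl2* (0.92) most like *Nkx6-1*, followed for the last by *Sox7* (0.91) and *Bmp2* (0.90). Over the 21 libraries without MBD2aΔGR, *Fzd10* was at 0.79, *Loxl2* at 0.85, and *Sox7* and *Bmp2* at 0.81. *Car14*, *Tmem47* and *Sp8* were at 0.96, 0.96 and 0.93 there.

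Other genes of the same system were counted from lists of dorsal, intermediate and ventral factors. Of 12 other dorsal progenitor factors, 11 fell and none rose in *Mbd3* KO, 10 fell in MBD2a and 11 in MBD2t. The shares of all genes tested that fell were 14.2%, 13.7% and 15.1%. The log2 fold changes of *Zic1* in these lines were -6.75, -4.80 and -6.74. All 6 other intermediate factors fell in each of the 3 lines, and *Prdm13* was at -6.99, -5.24 and -6.66. Without s03, 5 of the 6 were called lower in each line (14.9%, 14.7% and 15.7% of all genes). In MBD2a it was also 5 without s15 (12.5% of all genes). Median log2 fold changes in *Mbd3* KO were -3.25 for the dorsal and -5.27 for the intermediate list.

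The list of other ventral factors was mixed. Of 9 tested, 2 fell and 4 rose in *Mbd3* KO, and 2 fell and 5 rose in MBD2a (4 without s15). Over all genes tested, 14.2% fell and 19.6% rose in *Mbd3* KO, and 13.7% fell and 16.9% rose in MBD2a. *Olig2*, at 2.44 to 8.91 CPM in WT, had log2 fold changes of -4.85 and -4.81. Among those that rose were *Foxn4*, a factor of ventral interneuron progenitors, by 3.11 and 1.08, and *Foxa2* by 1.46 and 2.08. In MBD2aΔGR 3 rose (2.69% of all genes rose), with *Foxa2* at 2.36, but without s18 none was called in edgeR (4 at an unadjusted p-value under 0.05, and 0.131% of all genes rose) and *Foxa2* was at 0.89 (adjusted p = 0.279). *Foxa2* and *Foxa1* are also endoderm genes. Of 8 extraembryonic endoderm markers, 3 rose in MBD2a and 7 in MBD2aΔGR, against 1 without s15 (or without s03) in MBD2a. In MBD2aΔGR 3 rose without s03, and without s18 edgeR called 0 (1 at an unadjusted p-value under 0.05). In *Mbd3* KO the sum of these markers was 294 to 845 CPM against 419 to 459 CPM in WT. The part of these markers in the result was not tested.

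**Figure D4:**
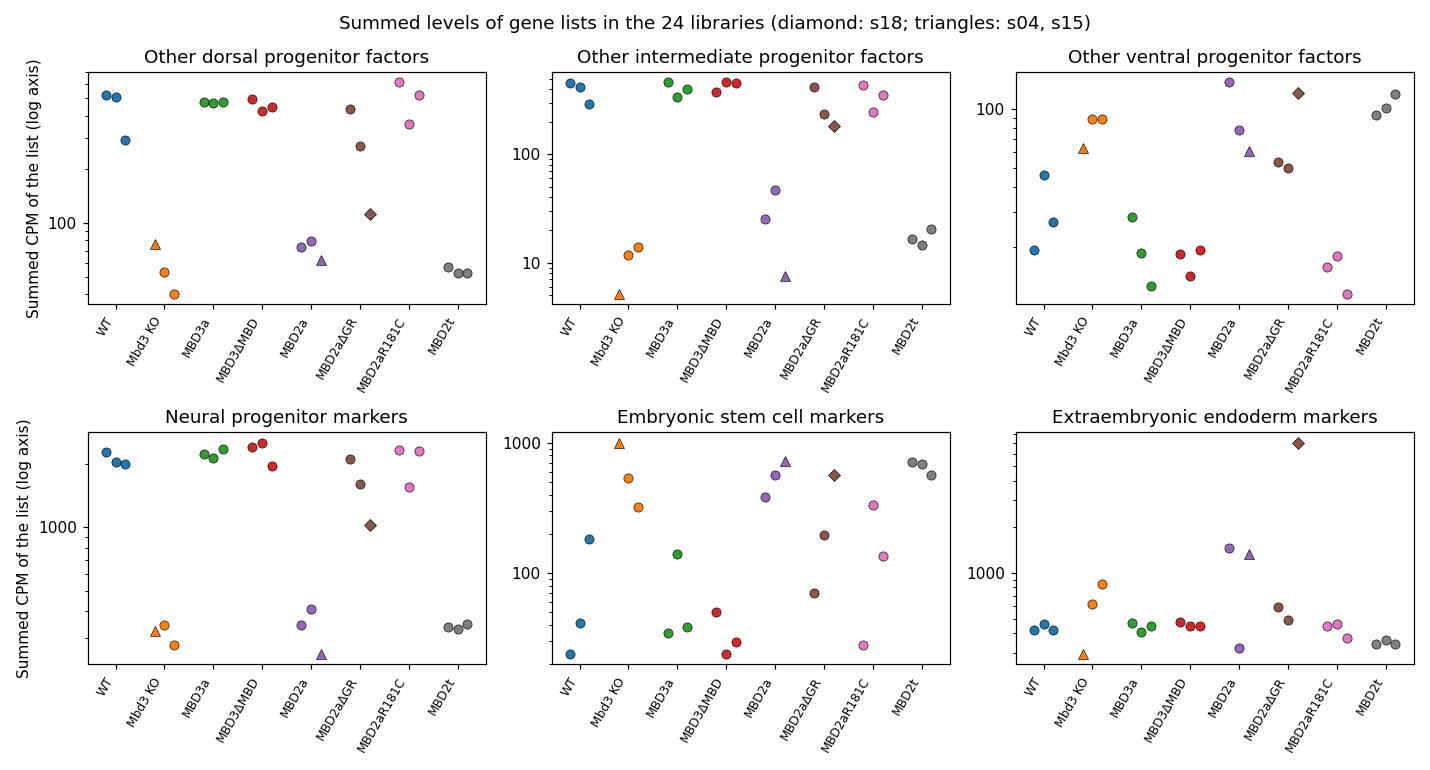
Summed CPM (log axis) of 3 lists of other patterning factors and 3 lists of cell type markers in each of the 24 libraries by line, with a diamond for s18 and triangles for s04 and s15. The dorsal and intermediate lists and the progenitor markers are low in *Mbd3* KO, MBD2a and MBD2t, the ventral list is not, and s18 has the highest sum of the endoderm markers.

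Signals upstream of the factors changed less uniformly. Over all genes tested, 14.2% fell and 19.6% rose in *Mbd3* KO. Of 9 roof plate genes tested, 1 fell and 1 rose, near these shares (without s04, 2 and 2 of 10, against 12.8% and 18.8%). *Wnt1* fell by 5.66, from 35.6 to 60.4 CPM in WT to 0.715 to 1.22 CPM, while *Bmp7*, a dorsalising signal, was at 0.12 and *Bmp4* at 0.32, neither of them called. In the Hedgehog pathway, 6 of 11 genes fell and 2 rose. *Boc*, a co-receptor, fell by 4.98 and *Gas1*, another co-receptor, by 1.69, whereas the receptor *Ptch1*, itself a target of the pathway, was at 0.83 in *Mbd3* KO and was called higher in MBD2a (1.20) and MBD2t (1.16).

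Downstream, 16 of 25 postmitotic spinal neuron factors tested fell in *Mbd3* KO and 3 rose. *Lhx5* fell by 5.80, *Lbx1*, the factor of dorsal interneurons, by 5.63, *Pax2* by 4.12 and *Lhx1* by 3.72. Of 9 proneural factors, 8 fell, *Neurog1* by 6.35. Of 12 rostral brain factors, 1 fell and 2 rose in *Mbd3* KO, near the shares over all genes (14.2% and 19.6%). Without s04, 2 of the rostral factors fell and 3 rose (12.8% and 18.8% of all genes). In WT, *Otx2* had 2.14 to 3.71 CPM and *Gbx2* 22.9 to 46.8 CPM.

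ESC and trophoblast markers moved in the opposite direction to the factors. All 8 ESC markers rose in *Mbd3* KO, to a sum of 319 to 1001 CPM from 24.02 to 182 CPM in WT. All 6 trophoblast markers rose too, to 1049 to 1363 CPM from 80.8 to 164 CPM. Without s04, which had the 1001 CPM, 5 of the 8 ESC markers and all 6 trophoblast markers were called higher (18.8% of all genes). In MBD2aΔGR the ESC markers summed to 70.4, 195 and 564 CPM, the highest in s18. Of 8 neural crest markers, a lineage that also expresses *Pax3* and *Msx1*, 5 fell and 1 rose in *Mbd3* KO. Of 6 mesenchyme markers 3 fell there (2 without s04), and of 6 paraxial mesoderm and muscle markers tested 2 rose. Over all genes tested, 14.2% fell and 19.6% rose in *Mbd3* KO. The 6 eye markers summed to 3.57 to 4.62 CPM in WT and to 4.20 to 4.79 CPM in *Mbd3* KO. In MBD2aΔGR they summed to 6.22 to 8.81 CPM, the highest in s18. Among them *Rax*, the defining eye gene, did not exceed 0.388 CPM in any library. The part of these cell types in the levels of the factors was not tested.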

How the data were processed

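Poly(A) RNA-seq libraries of 8 lines were analysed (24 libraries, 3 per line). Per the study's methods, reads were trimmed with Trim Galore and mapped by STAR to mm9 (NCBIM37), and reads per GENCODE gene were summed with QuasR. The deposited values are these raw counts, whole numbers for 25400 genes. Columns were matched to lines by their names, except those of the MBD2a point mutant, which carry another residue number and were assigned as the only point mutant of MBD2a. The ChIP-seq libraries were not analysed here.

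From these counts, filterByExpr kept 16582 genes, libraries were scaled by TMM, and all libraries entered a single quasi-likelihood fit of edgeR 4.0.16 (R 4.3.3) with the line as the factor. Each standard error was taken as the size of the log2 change over the square root of F, and log2 CPM used a prior count of 1. CPM per kilobase used the exon length of the gene model. The procedure was tested on simulated counts with the same spread in every library. That test does not cover libraries that stand apart from their line. Every pair of libraries of a line differed by more than the sampling noise (chi-square per gene 3.42 to 303). An exact permutation test of 3 against 3 libraries cannot go below p = 0.1. Alternatives were other scalings, filters, thresholds and fits, DESeq2 1.42.0 and leaving out libraries.

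Named genes are the 10 factors, the 4 genes with the highest mean CPM of each list, *Mbd3* and *Mbd2*, and from the 3 genes that vary most like each factor within lines; of the latter not all are printed. The factors and lists were chosen with earlier results of these data known. Values of some genes of the lists are not reported here.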

Additional observations from a re-analysis of the deposited data

How the results depend on the processing

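The number of factors called in each of the 17 comparisons was recomputed in 8 or 9 other ways and with each library of the lines compared left out in turn. In 13 of them the number stayed within 1.5 times the reported one throughout, and no call changed direction. The exceptions were MBD2aΔGR against WT, MBD2a against *Mbd3* KO, MBD2aΔGR against MBD2a, and MBD2aR181C against MBD2aΔGR. Fitting only the 2 lines compared gave 0, 0, 6 and 0 factors for these, in place of 1, 3, 10 and 1. DESeq2 called 2 in MBD2aΔGR against WT (*Dbx2* and *Nkx6-1*) and 5 in MBD2a against *Mbd3* KO, and dropping the fold change threshold gave 2 in the former. With single libraries left out, MBD2aΔGR against WT had 0 (without s18) to 6 (without s16), MBD2a against *Mbd3* KO 1 (without s04 or s13) to 4 (without s15), and MBD2aR181C against MBD2aΔGR 0 (without s18, s19 or s21) to 4 (without s16). The cause was not tested. Where a line was left with 2 libraries, they were assumed to vary like those of the other lines. *Nkx6-1* in MBD2a against WT was not called under 4 other settings (adjusted p from 0.0507 to 0.0583).

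Log2 fold changes of the factors were recomputed for all comparisons with WT and, of the others, for factors called or discussed in comparisons with MBD2a or MBD2aΔGR. Among these, the changes of sign were in values against WT that were not called. *Msx1* in MBD2aΔGR was at 0.019 with library size alone as the scaling, and from -0.39 to 0.31 with single libraries left out. The other ranges on leaving out a library were -0.26 to 0.0058 for *Pax6* in MBD2aΔGR. In MBD3a they were -0.0024 to 0.30 for *Pax3*, -0.38 to 0.19 for *Pax7*, -0.17 to 0.27 for *Msx3*, -0.28 to 0.23 for *Gsx1* and -1.1 to 0.038 for *Nkx6-1*. In MBD3ΔMBD they were -0.073 to 0.48 for *Gsx1*, -0.65 to 0.32 for *Nkx6-1* and -0.19 to 0.026 for *Irx3*. In MBD2aR181C they were -0.045 to 0.35 for *Pax3*, -0.035 to 0.26 for *Msx1*, -0.11 to 0.32 for *Msx3* and -0.18 to 0.48 for *Gsx1*.

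No paired analysis was possible because the columns of the count table carry library numbers but no replicate numbers. The older quasi-likelihood fit of edgeR and the counts of list genes without s03, s04, s15, s18 or s20 are choices made after seeing the data. Depth limits *Pax7*, *Gsx1*, *Dbx2* and *Nkx6-1* most, which had under 1 CPM in every *Mbd3* KO library. The fit without MBD2t was not run for the comparisons of that line.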
